A study of Mus musculus with 10 samples.

Results

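Transcripts of 10 genes of neutrophil granules and of the S100 alarmins were followed in bead-purified microglia of the mouse midbrain and striatum. The genes were S100a8, S100a9, Retnlg, Mmp9, Hdc, Fpr1, Ngp, Camp, Ltf and Lcn2, which are 10 of the 53715 genes counted. They were chosen by name, with earlier results of the midbrain and striatum comparison of these same libraries known, so their levels in the 2 regions, and the calls made on them in this comparison, are given as a description and not as independent evidence. Neutrophils are short-lived white blood cells that store antimicrobial proteins in granules, which are filled in a set order while the cell matures in the bone marrow. Azurophil granules are filled first, then the specific granules with lactoferrin, cathelicidin and lipocalin, and then the gelatinase granules. S100A8 and S100A9 form calprotectin, a calcium-binding protein of the neutrophil and monocyte cytosol that is released as a danger signal, and the healthy brain tissue holds few neutrophils.

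The cells came from untreated C57BL/6 mice aged 3 months, males by the published methods, and carried no transgene or deletion. After perfusion, the tissue was digested with papain, cleared on Percoll and passed over CD11b MicroBeads, and the poly-A RNA was sequenced by MARS-seq, which reads the 3' ends of transcripts. The pilot cohort held 2 midbrain and 2 striatum libraries. The second cohort held 2 midbrain and 2 striatum libraries, numbered 1 and 3 in their titles, and for 2 further libraries, titled Mdb 2 and Str 2, the title and the name of the deposited table gave opposite regions, so they entered no group. CD11b is carried by neutrophils, monocytes and border macrophages as well as by microglia, so the beads do not separate these cells. By the published methods, cytometry of an aliquot found almost all viable cells to be microglia and a few to be infiltrated myeloid cells. In a bulk sample, fewer cells of a type and less RNA per cell cannot be told apart. The published text has both regions examined in the same mice, but the labels do not tie libraries or their numbers to mice, and p-values measure only the spread between these samples.

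The assigned libraries held 575709 to 8463782 counts, and the shallowest, second striatum replicate 3, was the only one under 2820369. A level of 3 counts, used as the floor, corresponded to 0.35 to 5.14 CPM, the count scaled to a common library size with TMM factors, which correct for differences in composition between libraries. The 10 markers of homeostatic microglia (Tmem119, P2ry12 and others) summed to between 7136 and 18278 CPM, with no gene of the list at 0 in any library. Ly6g, the surface protein used to define mouse neutrophils, was counted in each of the 8 libraries, at 0.467 to 13 CPM. Mpo and Elane, the defining azurophil granule enzymes, were at 0 in 3 of them and at most 8.56 and 8.10 CPM in the others.

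The genes lie on 5 chromosomes (positions in GRCm38, Gencode M17), and their exons overlap no exon of another gene. S100a8 (ENSMUSG00000056054.9, chr3:90668978-90670035, plus strand) and S100a9 (ENSMUSG00000056071.12, chr3:90692632-90695721, minus strand) are neighbours with 22.6 kb between them. Camp (ENSMUSG00000038357.10, chr9:109847379-109849617, minus strand), Ngp (ENSMUSG00000032484.8, chr9:110419747-110423012, plus strand) and Ltf (ENSMUSG00000032496.7, chr9:111019271-111042767, plus strand) follow each other on chromosome 9, at distances of 570 and 596 kb. Lcn2 (ENSMUSG00000026822.14, chr2:32384633-32388252), Hdc (ENSMUSG00000027360.5, chr2:126593667-126619299) and Mmp9 (ENSMUSG00000017737.2, chr2:164940780-164955850) share chromosome 2 but lie far apart. Retnlg (ENSMUSG00000022651.5) is at chr16:48872608-48874498 and Fpr1 (ENSMUSG00000045551.7) at chr17:17876471-17883940.

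The promoters of 4 members are shown, from 2 pairs that varied together across the libraries, S100a8 with S100a9 (r = 0.951) and Ngp with Ltf (0.958). They are examples and not the closest pairs. Retnlg correlated with S100a9 at 0.998, and Camp with Ltf at 0.979 and with Ngp at 0.965. The promoters are the RefSeq sequences of build GRCm38.p6, 300 bases each that run from upstream of the annotated start into the first transcribed bases, written 5' to 3' on the strand of the gene. Capitals mark every match, on either strand, to 3 motifs: the TATA box (TATAAA), the core of the PU.1 site (GAGGAA, or TTCCTC when read from the other strand) and the C/EBP consensus (TTNNGNAA).
S100a8 (chr3:90668821-90669120, plus strand): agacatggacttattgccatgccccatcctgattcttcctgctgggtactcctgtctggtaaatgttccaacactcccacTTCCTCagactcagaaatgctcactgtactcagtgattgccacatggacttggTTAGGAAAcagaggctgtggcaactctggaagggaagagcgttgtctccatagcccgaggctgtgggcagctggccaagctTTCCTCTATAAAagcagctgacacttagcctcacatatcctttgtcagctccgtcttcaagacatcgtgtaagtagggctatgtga
S100a9 (chr3:90695672-90695971, minus strand): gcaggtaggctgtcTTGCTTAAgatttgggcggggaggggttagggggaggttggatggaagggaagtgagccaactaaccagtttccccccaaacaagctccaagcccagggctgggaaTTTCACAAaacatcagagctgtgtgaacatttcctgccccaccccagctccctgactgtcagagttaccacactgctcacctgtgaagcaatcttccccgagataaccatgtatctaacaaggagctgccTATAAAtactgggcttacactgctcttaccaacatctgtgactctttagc
Ngp (chr9:110419558-110419857, plus strand): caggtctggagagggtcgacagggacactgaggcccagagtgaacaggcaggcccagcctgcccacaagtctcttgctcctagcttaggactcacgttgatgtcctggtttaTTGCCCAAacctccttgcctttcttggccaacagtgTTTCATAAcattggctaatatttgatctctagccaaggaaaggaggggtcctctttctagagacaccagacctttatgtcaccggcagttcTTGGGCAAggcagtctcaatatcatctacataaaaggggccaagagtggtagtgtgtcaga
Ltf (chr9:111019042-111019341, plus strand): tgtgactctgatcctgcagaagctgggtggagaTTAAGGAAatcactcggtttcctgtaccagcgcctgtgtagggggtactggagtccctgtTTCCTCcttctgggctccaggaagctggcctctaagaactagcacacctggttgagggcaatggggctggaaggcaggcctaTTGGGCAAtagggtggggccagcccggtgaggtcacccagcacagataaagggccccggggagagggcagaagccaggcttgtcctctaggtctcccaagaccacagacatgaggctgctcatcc
Counting the annotated start as position 0, the S100a8 promoter had its TATA box from -30 to -25, directly after a PU.1 core from -36 to -31, so the capitals of these matches run together. In S100a9 the TATA letters began at position 0, and 2 C/EBP matches began at -236 and -130. The Ngp promoter held 3 C/EBP matches, beginning at -138, -102 and -11, and no match to the other motifs. Ltf held C/EBP matches from -217 and -75 and a PU.1 core from -157. Of the 9 members with a promoter in the table (Mmp9 had no entry), 7 held a C/EBP match, 3 a PU.1 core and 3 the TATA letters, while 40.7%, 28.3% and 13.6% of all 32851 promoters held them. Matches were counted at any position, and the TATA letters of Fpr1, the third gene to hold them, began at -227. Camp and Hdc held none of the motifs, and a match of letters is no evidence that a factor binds.

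The calcium-binding alarmins were higher in the midbrain than in the striatum in both cohorts, and their levels in the second cohort were well above those of the pilot. S100a9 stood at 343 and 212 CPM in pilot midbrain libraries 1 and 2, and at 94.7 and 14.3 CPM in pilot striatum libraries 1 and 2. In the second cohort it stood at 3898 and 1357 CPM in midbrain libraries 1 and 3, and at 307 and 197 CPM in striatum libraries 1 and 3. The regions did not overlap within either cohort, but the second striatum came up to the level of the pilot midbrain. The mean level was 5.09-fold higher in the midbrain in the pilot (278 ± 92.7 against 54.5 ± 56.8 CPM, SD, n = 2) and 10.4-fold higher in the second cohort (2627 ± 1796 against 252 ± 77.6 CPM, n = 2). S100a8, the partner of S100a9 in calprotectin, was at 33.4 and 26.6 CPM in the pilot midbrain, 13.2 and 7.0 CPM in the pilot striatum, 1116 and 243 CPM in the second midbrain and 45.3 and 44.6 CPM in the second striatum. All 4 second cohort libraries thus lay above all 4 pilot libraries for S100a8, whichever the region. Its ratio of means between regions was 2.97 in the pilot and 15.1 in the second cohort.

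Retnlg, which encodes a secreted resistin-like protein found in neutrophils, followed the alarmins. It was at 67.5 and 45.5 CPM in the pilot midbrain, 17.2 and 2.1 CPM in the pilot striatum, 672 and 266 CPM in the second midbrain and 51.9 and 42.8 CPM in the second striatum. Midbrain levels exceeded striatum levels by 5.86-fold and 9.9-fold, in the pilot and in the second cohort. Across the 8 libraries its log2 CPM correlated with that of S100a9 at r = 0.998, and S100a8 with S100a9 at r = 0.951, over points that share their library's depth and preparation. In reads, Retnlg made up between 12.8 and 17.9% of the sum of Retnlg and S100a9 in every library, although the S100a9 count itself ran from 115 to 18443.

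**Figure D1:**
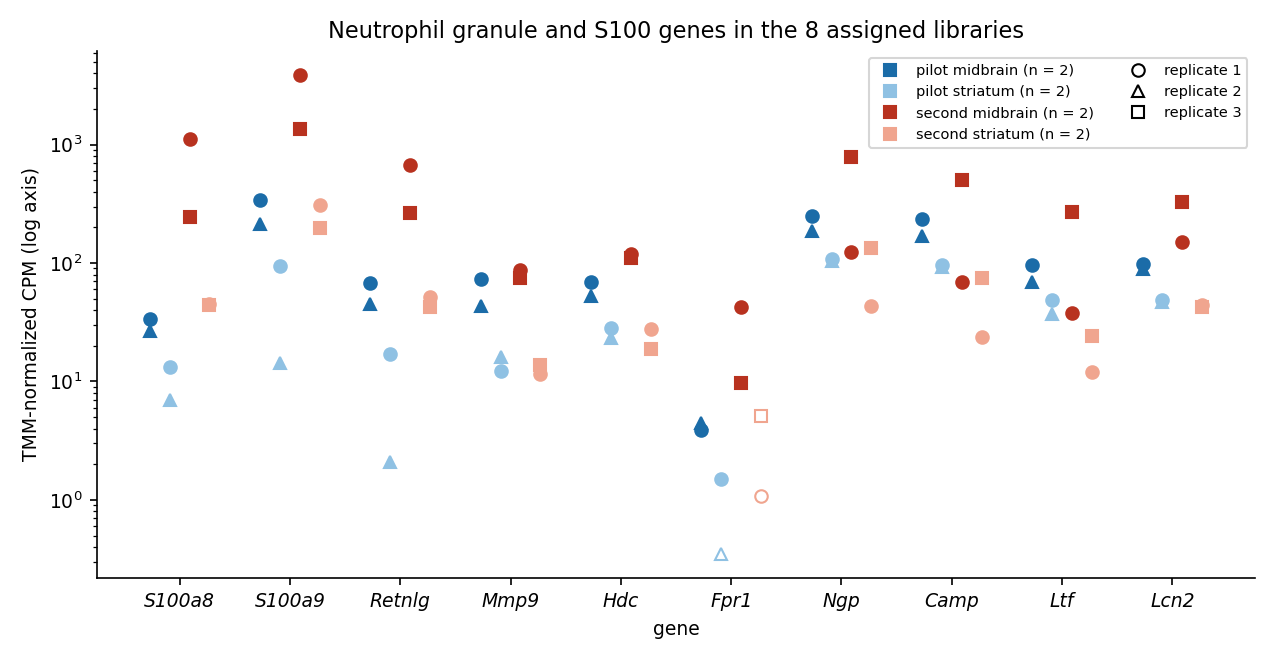
TMM-normalized CPM (log axis) of the 10 genes in the 8 assigned libraries, coloured by cohort and region and shaped by replicate number. Open symbols stand at the library's floor of 3 counts and mark a count of 0 (Fpr1 only). Midbrain points (dark) lie above striatum points (light) of the same cohort for every gene except Ngp and Camp in the second cohort.

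The enzymes Mmp9 and Hdc were higher in both midbrain libraries than in both striatum libraries of each cohort. Mmp9, the gelatinase stored in the last granules to form, was at 73.3 and 43.4 CPM in the pilot midbrain and 12.3 and 16 CPM in the pilot striatum. In the second cohort it was at 87.7 and 75.4 CPM in the midbrain and 11.6 and 13.7 CPM in the striatum. Hence the striatum level was nearly the same in both cohorts (14.1 ± 2.61 and 12.7 ± 1.49 CPM, n = 2 each), and the midbrain exceeded it by 4.13-fold and 6.44-fold. Hdc, the enzyme that makes histamine and that mast cells and basophils also use, was at 69.8 and 52.9 CPM in the pilot midbrain and 28.4 and 23.1 CPM in the pilot striatum. Its second cohort levels were 120 and 110 CPM in the midbrain against 27.6 and 18.9 CPM in the striatum, a ratio of 4.96 after 2.38 in the pilot. The 8 markers of mast cells and basophils summed to 6.82 to 16 CPM in the midbrain libraries and 1.71 to 3.99 CPM in the striatum libraries. Cma1, a mast cell protease and 1 of the 2 genes of this list that were tested, was higher in the midbrain in the joint fit over both cohorts (log2 change 3.25 ± 0.61, SE, limma adjusted p = 0.0348). This call was lost without pilot striatum 1, second striatum 1 or second striatum 3, in fits that called 9, 0 and 3 genes in all. Cma1 passed the filter on low counts only through its midbrain libraries, and without any 1 of these it was not tested. Its call is thus a description and not independent evidence. Cma1 was at 3.58 and 4.32 CPM in the pilot midbrain, 0 and 0.35 CPM in the pilot striatum, 6.55 and 6.01 CPM in the second midbrain and 1.81 and 0 CPM in the second striatum. The part of mast cells in the Hdc level was not tested.

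Fpr1, the receptor by which neutrophils sense bacterial formyl peptides, was the member with the fewest reads. It had 23 and 25 counts in the pilot midbrain, 8 and 0 in the pilot striatum, 200 and 42 in the second midbrain and 0 and 0 in the second striatum. The midbrain libraries lay above the striatum libraries in both cohorts, by 5.57-fold in the pilot. In the second cohort the midbrain mean was at least 8.34-fold higher, taking 3 counts per library as the striatum level. The fitted log2 change of Fpr1 in the second cohort (5.71) depends on the constant added to its 0 counts and is no bound.

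The specific granule proteins had regional ratios between 1.92 and 2.15 in the pilot, where their replicates lay close together, and spread widely in the second cohort. Ngp, a cathelicidin-related granule protein, stood at 252 and 188 CPM in the pilot midbrain and at 109 and 105 CPM in the pilot striatum, a ratio of 2.06. In the second cohort it stood at 123 and 786 CPM in midbrain libraries 1 and 3, and at 43.2 and 134 CPM in striatum libraries 1 and 3. Midbrain library 1 of the second cohort was thus below striatum library 3, and the regions overlapped. Camp, the gene of the antimicrobial peptide cathelicidin, moved likewise, with 237 and 168 CPM in the pilot midbrain, 96.2 and 92.3 CPM in the pilot striatum, 69.3 and 500 CPM in the second midbrain and 23.6 and 75.4 CPM in the second striatum. Its regions also overlapped in the second cohort, since 69.3 lies below 75.4 CPM. Within each library number of the second cohort, the midbrain library was the higher for both Ngp and Camp. The numbers are not tied to mice, so this is no paired comparison.

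Ltf, which encodes the iron-binding lactoferrin, was at 96.0 and 68.8 CPM in the pilot midbrain, 48.8 and 36.9 CPM in the pilot striatum, 37.8 and 272 CPM in the second midbrain and 12 and 24 CPM in the second striatum. Its regions did not overlap within a cohort, and the mean ratio was 1.92 in the pilot and 8.62 in the second cohort. Lcn2, the lipocalin that withholds iron from bacteria by binding their siderophores, had less spread than the other 3. It was at 98.1 and 88.4 CPM in the pilot midbrain, 48.6 and 47.2 CPM in the pilot striatum, 152 and 329 CPM in the second midbrain and 44.6 and 42.8 CPM in the second striatum. The ratio of means was 1.95 in the pilot and 5.5 in the second cohort.

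Counted over the members, both midbrain libraries lay above both striatum libraries for 10 of 10 genes in the pilot and 8 of 10 in the second cohort, where 23.4% and 24.2% of all genes tested did so, and for 8 in both cohorts (9.23% of genes). In the fits of limma across all genes, 10 of 10 members passed an unadjusted p of 0.01 in the pilot, as did 2.64% of all 14972 genes (2.09% as higher in the midbrain), and 7 of 10 in the second cohort, as did 3.47% of 13486 genes (2.88% as higher). In the joint fit over both cohorts, with the cohort as covariate, 6 of 10 passed an adjusted p of 0.05, as did 1.06% of 14053 genes. The members had been chosen from this contrast, so nothing is read from these counts. The median log2 change of the members was 1.44 in the pilot and 2.74 in the second cohort (2.75 with Fpr1 at its bound), where the median of all genes was within 0.02 of 0. In the joint fit the log2 change was largest for Retnlg (3.24 ± 0.49, SE) and S100a9 (3.08 ± 0.47) among the 6 that passed, and smallest for Lcn2 (1.51 ± 0.31). Just outside the adjusted p of 0.05 stood Fpr1, and just inside it S100a8 and Lcn2. The joint count rested on single libraries, as it was 0 without pilot midbrain 1, without second striatum 1 or without second striatum 3. These fits called 0 of 13552, 0 of 13922 and 3 of 14050 genes in all, so the loss was not particular to the members.

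**Figure D2:**
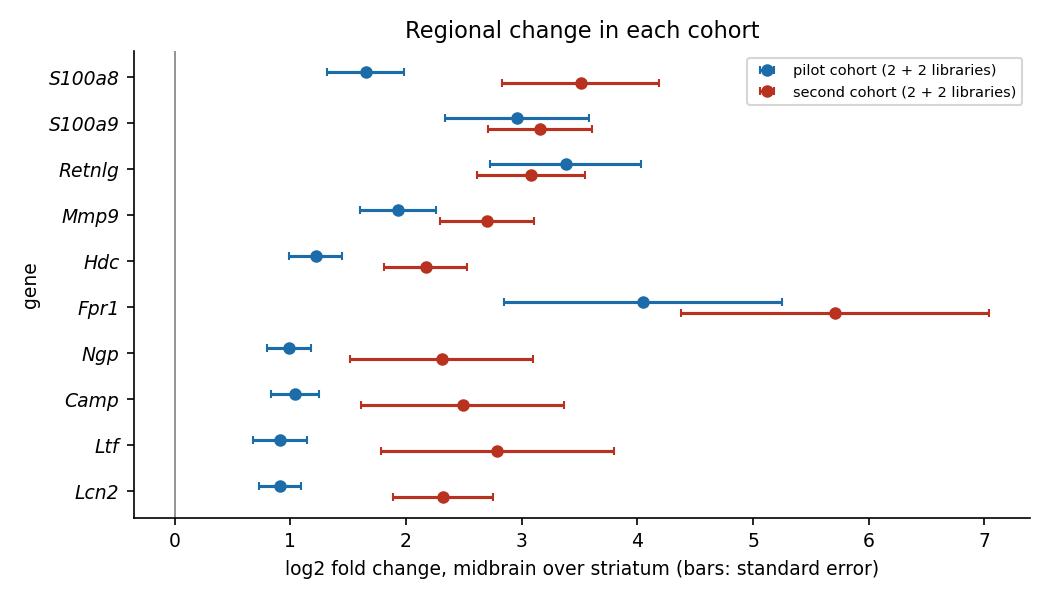
Log2 fold change of midbrain over striatum for each gene in the pilot (blue) and second cohort (red), from fits of 2 + 2 libraries, with bars for the standard error. All values lie right of 0, from 0.91 to 4.05 in the pilot and from 2.17 to 5.71 in the second cohort, and the bars of Ngp, Camp and Ltf are wider in the second cohort.

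The comparison of the cohorts, which played no part in choosing the genes, separated the members. With region as covariate, S100a8, S100a9 and Retnlg rose in the second cohort relative to the pilot, and no member fell. The log2 change was 3.63 ± 0.52 (SE) for S100a8, 3.04 ± 0.46 for S100a9 and 3.02 ± 0.42 for Retnlg, with adjusted p of 0.00508, 0.00578 and 0.0049 (limma, Benjamini-Hochberg over 14053 genes). For these 3 genes both second cohort libraries lay above both pilot libraries in each region, by 22.6-fold, 9.46-fold and 8.29-fold in the midbrain means and 4.44-fold, 4.62-fold and 4.91-fold in the striatum means. By comparison, 25.9% of the genes tested were ordered this way in the midbrain and 20.0% in the striatum. Over all genes, 10.5% passed in this contrast and 4.71% passed as higher in the second cohort, so 3 of 10 members is to be read beside that share.

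The other 7 members did not pass. The log2 change was 0.37 ± 0.24 for Mmp9 (adjusted p = 0.318), 0.67 ± 0.21 for Hdc (0.0619), 0.79 ± 0.30 for Lcn2 (0.105) and 2.02 ± 0.71 for Fpr1 (0.0885). The values of the remaining specific granule genes were -0.02 ± 0.52 for Ngp, -0.61 ± 0.55 for Camp and -0.19 ± 0.57 for Ltf, with adjusted p of 0.986, 0.491 and 0.855, and their sign is not fixed by these libraries. In the striatum, both second cohort libraries lay below both pilot libraries for Camp, Ltf and Lcn2, whose means were 0.525, 0.42 and 0.913 of the pilot level, and 26.2% of the genes tested were ordered this way. In the midbrain, both second cohort libraries lay above both pilot libraries for Mmp9, Hdc, Fpr1 and Lcn2. Their midbrain means were 1.4, 1.88, 6.17 and 2.58 times the pilot level, and 25.9% of the genes tested were ordered this way. The 3 called genes passed in each of the 15 alternative analyses. Without second midbrain 3, 6 members passed, Fpr1 as higher and Camp and Ltf as lower beside the 3 above. Cohort and time or handling of the 2 experiments cannot be told apart.

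The size of the regional change was compared between cohorts through the interaction term. It was positive, that is larger in the second cohort, for 9 of 10 members with a median of 1.37 on the log2 scale, and Retnlg was at -0.38 ± 1.01. No member passed an adjusted p of 0.05 (lowest 0.86, limma), and 0 of 14053 genes did (0.0%), with 0 by edgeR and 3 genes, none a member, by DESeq2. At an unadjusted p under 0.05 there were 2 members, Hdc (0.91 ± 0.41) and Lcn2 (1.37 ± 0.52), and 771 genes in all. In simulated counts of this design, 15 of 100 genes with a 4-fold difference between cohorts were recovered, so a difference of this size would mostly be missed.

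Within the second midbrain, the replicates differed in opposite directions for the alarmins and the specific granule genes. Second midbrain 1 exceeded second midbrain 3 by 4.59-fold in S100a8, 2.87-fold in S100a9, 2.53-fold in Retnlg and 4.35-fold in Fpr1. The same library was 6.39-fold lower in Ngp, 7.21-fold lower in Camp, 7.2-fold lower in Ltf and 2.16-fold lower in Lcn2. Mmp9 and Hdc hardly differed between these libraries (1.16-fold and 1.09-fold). In the second striatum, library 1 was also lower in Ngp, Camp and Ltf, with log2 ratios of -1.63, -1.68 and -1.0, higher in S100a9 (0.64) and about equal in S100a8 (0.02) and Lcn2 (0.06). The pilot midbrain libraries were within 1.69-fold of each other for every member. In the pilot striatum, library 1 exceeded library 2 by 6.6-fold in S100a9 and 8.19-fold in Retnlg, whereas Ngp, Camp and Lcn2 were almost equal.

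**Figure D3:**
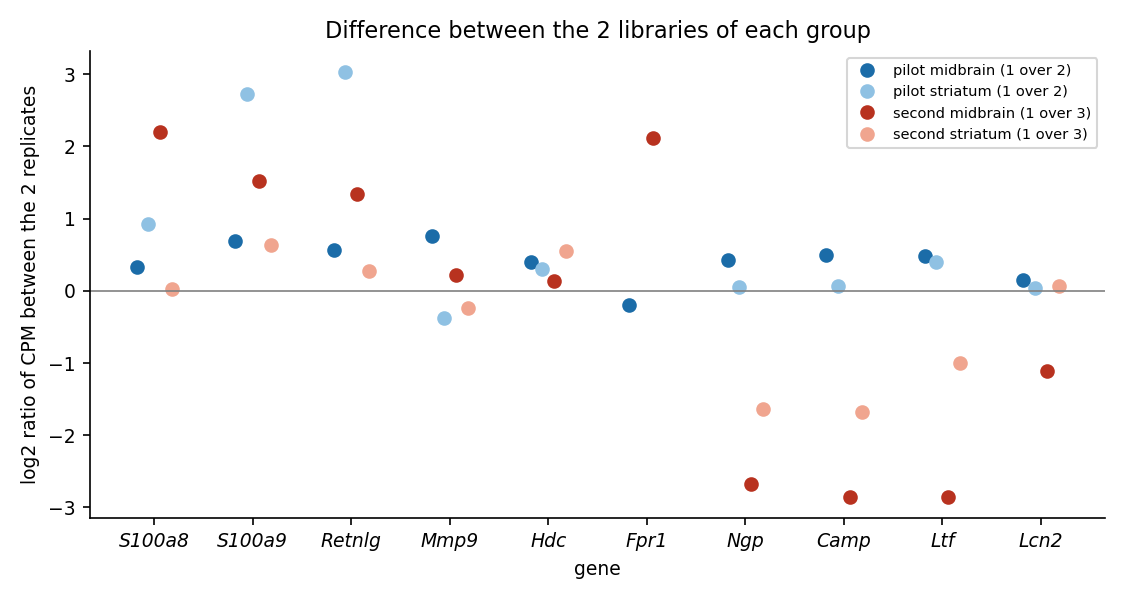
Log2 ratio of the CPM of the 2 libraries of each group for every gene (pilot: replicate 1 over 2, second cohort: replicate 1 over 3). Ratios of Fpr1 are drawn only where both libraries had reads. In the second midbrain the points run from 2.20 for S100a8 down to -2.85 for Camp and Ltf.

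The share of Ngp among the reads of Ngp and S100a9 gives the same contrast within each library, where depth and scaling cancel. It was 42.3 and 47.0% in the pilot midbrain and 53.4 and 87.9% in the pilot striatum. In the second cohort it was 3.06 and 36.7% in midbrain libraries 1 and 3 and 12.3 and 40.4% in striatum libraries 1 and 3. The 95% Wilson interval was 2.82 to 3.31% for second midbrain 1, and the widest, for second striatum 3, was 33.7 to 47.5%, for counting error only. All 4 pilot shares thus lay above all 4 second cohort shares. The log2 ratio of Ngp to S100a9 averaged 0.61 in the pilot and -2.29 in the second cohort, a difference of -2.90 with a two-sided exact permutation p = 0.0556, exchanging cohorts within regions, which is the smallest p that the 36 arrangements allow. This ratio was examined after its values had been seen. Among the specific granule genes the shares moved less. Camp took 46.9 to 48.5% of the reads of Camp and Ngp in the 4 pilot libraries and 35.3 to 38.9% in the 4 second cohort libraries, and Ltf took 15.2 to 31.0% of the reads of Ltf and Ngp over the 8. Over the 8 libraries the log2 CPM of Camp correlated with Ltf at r = 0.979 and with Ngp at 0.965, but with S100a8 at 0.107 and with S100a9 at 0.176.

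**Figure D4:**
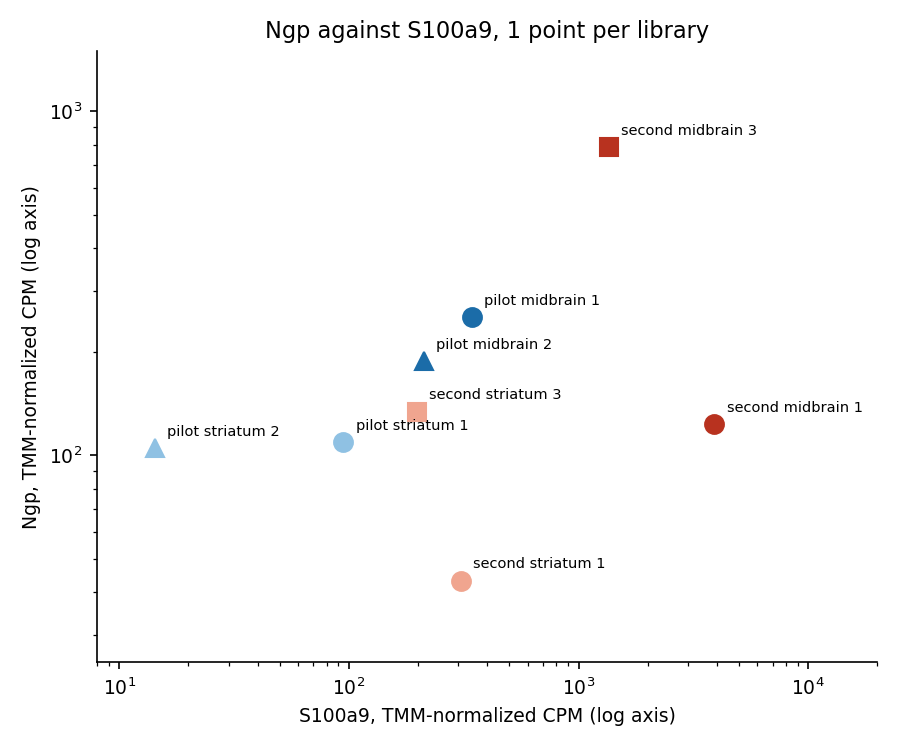
Ngp against S100a9 in TMM-normalized CPM, both on log axes, with 1 labelled point per library. Second midbrain 1 has the highest S100a9 (3898 CPM) with an Ngp level of 123 CPM, and second midbrain 3 the highest Ngp (786 CPM) with S100a9 at 1357 CPM.

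Other genes of neutrophils, taken from 4 lists of granule proteins, cytosolic proteins and surface receptors, were examined in the same fits. These lists too were chosen with earlier results of these data known. Their calls between regions are thus a description and not independent evidence. Of their 32 genes, 19 passed the filter on low counts. In the joint fit 6 of these were higher in the midbrain at an adjusted p of 0.05 and none lower, with a median log2 change of 1.73 (all genes 0.04), where 0.975% of all genes passed as higher. They were Adam8, Anxa1, Il1r2, Cxcr2, Ltb4r1 and Trem1, of which Ltb4r1 was named after its values were seen. Il1r2, the decoy receptor for interleukin-1 that neutrophils shed, had 5.63 and 7.92 CPM in the pilot midbrain, 1.13 and 1.05 CPM in the pilot striatum, 88.8 and 39.3 CPM in the second midbrain and 4.35 and 3.43 CPM in the second striatum. Its log2 change was 3.23 ± 0.55 (SE, adjusted p = 0.0247). Anxa1, an abundant cytosolic protein that limits neutrophil recruitment, changed by 2.80 ± 0.41 (0.0181), Trem1, an activating receptor of neutrophils and monocytes, by 2.04 ± 0.43 (0.0456), and Cxcr2, the chemokine receptor of neutrophils, by 1.56 ± 0.27 (0.0261). Adam8 changed by 1.67 ± 0.30 (0.0284), and its exons overlap an antisense gene that counting without strand cannot separate. The call of all 6 was lost without pilot midbrain 1, without second striatum 1 or without second striatum 3, and 1 call was left without pilot striatum 1, whereas 10 genes of the wider set of 44 described below, which holds these lists, were called without pilot striatum 2 or without second midbrain 3. Over all genes, 0 passed without pilot midbrain 1, 0 without second striatum 1, 3 without second striatum 3 and 9 without pilot striatum 1. With every library kept, 149 did. The 6 calls were also lost with the unassigned libraries placed by title, where 0 of 13814 genes passed. With every library required to hold 10 counts of a gene, 18 of the 44 were left to be tested. None of the 6 was among these, so that filter does not test their calls.

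Several neutrophil genes did not pass in that fit. Chil3, a chitinase-like protein, had a log2 change of 2.05 ± 0.49 (adjusted p = 0.0769), Hp, haptoglobin, 1.63 ± 0.41 (0.0863), Pglyrp1, a bactericidal granule protein, 1.18 ± 0.41 (0.207), Wfdc21 1.70 ± 0.40 (0.0757) and Ly6g 1.82 ± 0.57 (0.161). Csf3r, the receptor for the granulocyte growth factor G-CSF, which microglia also express, was at 350 to 601 CPM in every library and had a log2 change of -0.26 (adjusted p = 0.491). Reads of the azurophil list were few. Its 6 genes summed to 132 and 8 counts in the pilot midbrain, 12 and 10 in the pilot striatum, 89 and 256 in the second midbrain and 16 and 0 in the second striatum. Prtn3, proteinase 3, was the 1 gene that passed the filter, and its exons overlap Plppr3 on the opposite strand. It had 55 and 4 counts in the pilot midbrain, 6 and 8 in the pilot striatum, 69 and 99 in the second midbrain and 6 and 0 in the second striatum. Its log2 change was 2.47 ± 0.88 in the joint fit (limma adjusted p = 0.22, 0.0688 with edgeR and 0.00277 with DESeq2) and 3.55 ± 0.78 within the second cohort (limma, unadjusted p = 0.000844, adjusted p = 0.102). Elane had 16, 0, 2, 0, 3, 35, 3 and 0 counts over the 8 libraries in the order pilot midbrain, pilot striatum, second midbrain and second striatum, and Mpo 33, 0, 4, 0, 5, 37, 5 and 0. Reads of Elane and Mpo were thus most numerous in pilot midbrain 1 and second midbrain 3.

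Between the cohorts, 10 of the 19 neutrophil genes rose in the second cohort and none fell, with a median of 1.49, where 4.71% of all genes passed as higher. Il1r2 rose by 2.95 ± 0.41 (limma adjusted p = 0.0049), Chil3 by 2.79 ± 0.45 (0.00664), Ly6g by 1.84 ± 0.51 (0.0407), Wfdc21 by 1.64 ± 0.35 (0.0178), Trem1 by 1.6 ± 0.34 (0.0175), Anxa1 by 1.59 ± 0.35 (0.0206) and Cxcr2 by 1.17 ± 0.24 (0.0152). Mmp8 and Trem3, named after their values were seen, were also among the genes that rose. Chil3 was at 45.7 and 27.9 CPM in the pilot midbrain and 622 and 184 CPM in the second midbrain, and like S100a8 it was highest in second midbrain 1. In the striatum means, Il1r2, Chil3 and Ly6g were at 3.56, 2.93 and 2.66 times the pilot level, with both second cohort libraries above both pilot libraries. For Il1r2 and Ly6g this order rests on reads under the floor, which was 5.14 CPM in second striatum 3. Their second striatum means were 3.89 and 2.13 CPM. Anxa1 and Cxcr2 were at 1.68 and 1.41 times the pilot level there and Wfdc21 and Trem1 at 0.863 and 0.87 times, and for these 4 genes the cohorts overlapped, whereas in the midbrain Wfdc21 and Trem1 were 4.38-fold and 4.03-fold higher in the second cohort. Without pilot midbrain 1 or pilot midbrain 2, 2 and 4 of these genes passed. Over all genes, 134 and 300 passed in these fits, against 1480 with every library kept.

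**Figure D5:**
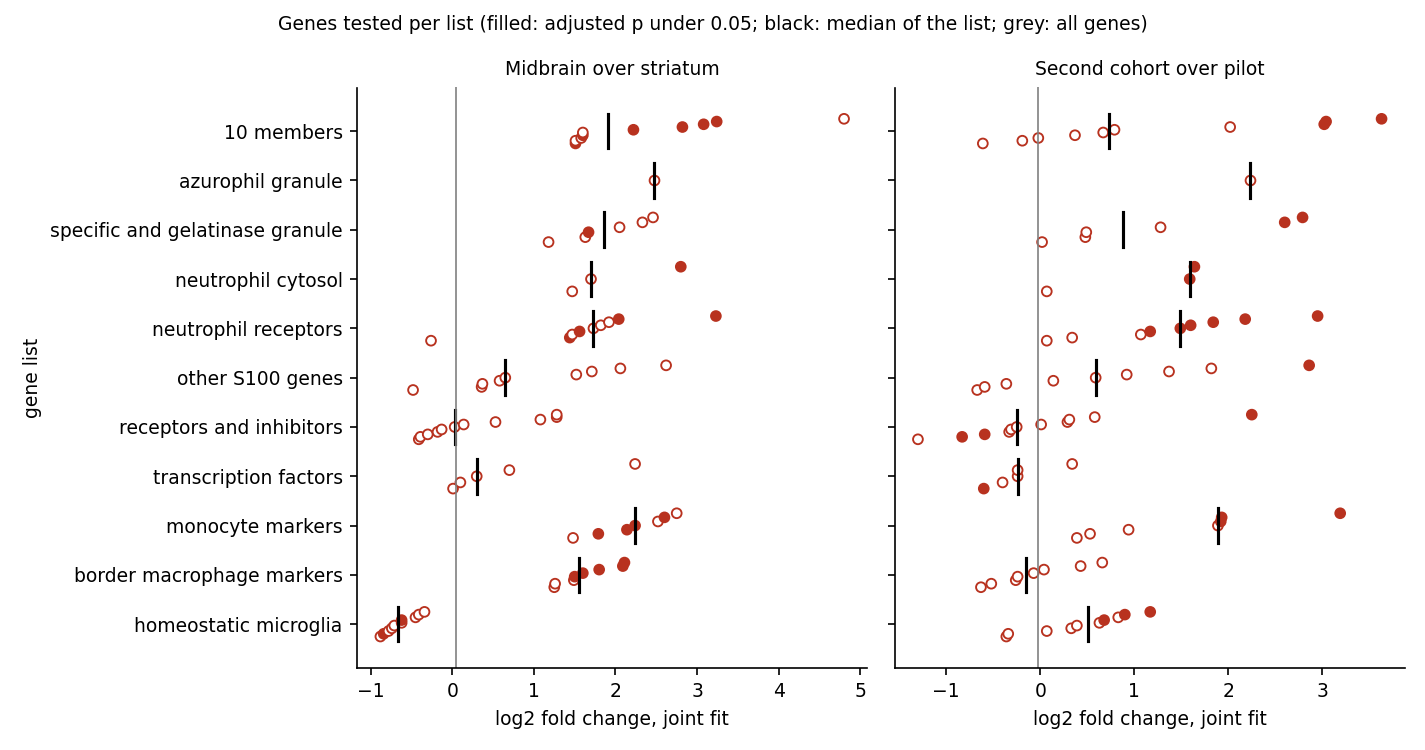
Log2 fold changes of every tested gene of the 10 members, of 7 related lists and of 3 marker lists in the joint fit, for midbrain over striatum (left) and second cohort over pilot (right). Filled points passed an adjusted p of 0.05, black bars are list medians and the grey line is the median of all genes. In the left panel the members, neutrophil, monocyte and border macrophage lists have medians between 1.55 and 2.47, and homeostatic microglia -0.66.

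With the other S100 genes, the partners of the members' products and granulocyte transcription factors, 44 genes of 7 lists were tested in the joint fit. The last 3 of these lists held no call between regions there in limma. Within the cohorts some of their genes passed the unadjusted p of 0.01 in limma as higher in the midbrain. These were S100a10 in both, S100a11 and Cebpe in the pilot, and S100a6 and Cebpb in the second cohort. Of all genes, 2.09% and 2.88% passed so in the pilot and the second cohort. In the joint fit, among 9 tested S100 genes (median 0.65), 6 had an unadjusted p under 0.05, and edgeR called 2 and DESeq2 3. The log2 change was 1.71 for S100a6 (adjusted p = 0.0829), 1.52 for S100a10 (0.122) and 0.65 for S100b, an astrocyte gene (0.289). Between cohorts 1 of the 9, S100a11, which was named after its values were seen, rose by 2.86 ± 0.73 (adjusted p = 0.0329), with 222 CPM in second midbrain 1, 31.7 CPM in second midbrain 3 and 1.87 to 13.8 CPM in the pilot libraries. Receptors, inhibitors and enzymes that act on the members' products (the calprotectin receptor Tlr4, the MMP9 inhibitors of the Timp family, the histamine-degrading enzyme Hnmt and others) had a median of 0.03 between regions, and 0 of 11 passed (3 at an unadjusted p under 0.05, 0 by edgeR and 0 by DESeq2). Timp2 was at 706 to 1198 CPM and Lrp1, a clearance receptor for MMP9 and lactoferrin, at 589 to 1091 CPM. Of 5 tested transcription factors of granulocytes none passed, with 2 at an unadjusted p under 0.05, 0 by edgeR and 2 by DESeq2. Cebpe, which drives specific granule genes during maturation and was named after its values were seen, had a log2 change of 2.24 ± 0.52 (adjusted p = 0.0692), with 27 and 18 counts in the pilot midbrain, 5 and 4 in the pilot striatum, 14 and 29 in the second midbrain and 4 and 0 in the second striatum. It passed the filter on low counts only through its midbrain libraries.

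Markers of monocytes, border macrophages and T and NK cells were, like the members, higher in the midbrain. The 7 monocyte markers summed to 382 and 334 CPM in the pilot midbrain, 138 and 156 CPM in the pilot striatum, 2396 and 599 CPM in the second midbrain and 167 and 135 CPM in the second striatum. This list was highest in second midbrain 1, as the alarmins were, and 4 of its 7 genes (Ly6c2, Ccr2, F13a1 and Ms4a4c) were called higher in the midbrain, with a median of 2.24. The border macrophage list summed to 1369 to 1644 CPM in the pilot midbrain, 525 to 805 CPM in the pilot striatum, 1925 and 2457 CPM in second midbrain 1 and 3 and 302 to 311 CPM in the second striatum, with 5 of 8 genes called higher in the midbrain. T and NK cell markers summed to 257 to 646 CPM in the midbrain and 22.3 to 137 CPM in the striatum, with 2 of 6 called (Nkg7 and Ccl5). The highest levels in this list were those of Ccl5 and Gzma, at means of 152 and 56.8 CPM over the libraries. The T cell genes Cd3d, Cd3e and Cd3g were at group means of at most 2.0 CPM and did not pass the filter of the joint fit. Cma1 of the mast cell list was called as given above. Homeostatic microglia genes ran the other way, at 7136 to 10512 CPM in the midbrain and 10077 to 18278 CPM in the striatum, and 2 of 10 (Siglech and Olfml3) were called lower in the midbrain, as were 0.0854% of all genes. In the joint fit the other 8 marker lists (B and dendritic cells, erythrocytes, platelets, astrocytes, oligodendrocytes, neurons and endothelial cells), with 28 tested genes, held no call in limma, with 7 genes at an unadjusted p under 0.05, 0 called by edgeR and 2 by DESeq2. The medians of these lists ran from -0.28 for B cells to 1.6 for dendritic cells, with erythrocytes at 1.05. Within the second cohort, Hbb-bs, Hbb-bt, Hba-a1 and Hba-a2 passed the unadjusted p of 0.01 as higher in the midbrain (limma). The ratios of their means were 6.56, 6.35, 5.67 and 5.77. Cd209a, a dendritic cell marker, also passed there (ratio 11.1), and 2.88% of all genes did so. In the pilot none of these genes passed. The dendritic cell list summed to 42.7 to 50.7 CPM in the pilot midbrain and 20 to 26.2 CPM in the pilot striatum. In the second cohort it summed to 53.7 to 82.3 CPM in the midbrain and 10.9 to 12 CPM in the striatum.

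Between cohorts, 3 of 7 monocyte markers rose, 0 of 8 border macrophage markers passed (limma, also 0 at an unadjusted p under 0.05 and 0 by edgeR and DESeq2), 3 of 5 tested erythrocyte genes fell and 4 of 4 endothelial genes fell in the second cohort, where 5.82% of all genes fell. Of the 10 homeostatic microglia genes 3 rose (P2ry12, Cx3cr1 and Siglech), as did 1 of 6 T and NK cell genes (Nkg7, by 1.51 ± 0.26, adjusted p = 0.00989), and 2 of 2 neuronal genes (Rbfox3 and Meg3) fell. The endothelial sum was 276 to 349 CPM in the pilot and 47.9 to 128 CPM in the second cohort. S100a8, S100a9 and several of the receptors above are also transcribed by monocytes, and the part of these other cells in the levels of the members was not tested.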

How the data were processed

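Acutely isolated CD11b-positive cells were sequenced as bulk MARS-seq libraries. The authors checked reads with FastQC, aligned them to GRCm38 with STAR (2.5.3a), and deposited raw counts per gene from featureCounts (1.6.0) over Gencode M17 exons, without normalization and without strand. Use of molecular identifiers is not given in the sources used here, so the counts were taken as reads. Symbols matched 53620 of the 53715 gene identifiers.

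Following the study's methods, counts were normalized with TMM (edgeR 4.0.16) and fitted with voom and limma (3.58.1, R 4.3.3), after removal of genes that had under 6 counts in over 50% of the libraries fitted. The cutoff was an unadjusted p of 0.01 within a cohort and a Benjamini-Hochberg adjusted p of 0.05 in the joint fit of 8 libraries. Log2 CPM used a prior count of 2. Alternatives were DESeq2 (1.42.0), the quasi-likelihood test of edgeR, library size scaling, other filters (none, or a minimum of 10 counts in all libraries), a block for the replicate number, both placements of the unassigned libraries and leaving out each library. Those for the 4 neutrophil lists between cohorts were chosen after seeing the data.

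The members and the gene lists were chosen with earlier results of these data known. Beside the members, the genes named were the 4 with the highest mean CPM of each list, the defining genes Ly6g, Csf3r, Cxcr2, Mpo and Elane, the 8 genes most correlated with the members, and genes behind small counts, named after their values were seen. In simulated counts with 200 changed genes, the fits recovered, of 100 genes changed 4-fold, 84 in the pilot, 75 in the second cohort, 79 in the joint fit and 80 between cohorts. Flow cytometry, PCR and T cell experiments were not analysed here.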

Additional observations from a re-analysis of the deposited data

Results flagged for a closer look

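The libraries in no group also held reads of the members, far above the limit of 3 counts that a count of 0 allows. The library titled Mdb 2, with 1584013 counts in all, held 1111 counts of the 10 genes (701 CPM), of which 697 were S100a9 and 50 Ngp. The library titled Str 2, with 5194739 counts, held 15058 counts (2899 CPM), of which 7877 were S100a9 and 1556 Ngp.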

How the results depend on the processing

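Pilot members passing numbered 10, and 7 to 10 over the other tests, filters and scalings and 5 to 10 with 1 library left out. Second cohort members passing numbered 7, and 0 with the unassigned libraries placed by title, 10 placed by file name and 7 to 9 with 1 library left out. In the joint fit 6 members passed, 3 of 8 tested with at least 10 counts in every library, 0 with the unassigned libraries placed by title, 8 placed by file name and 0 to 8 with 1 library left out. Of the 44 tested genes of all 7 lists, 6 passed, 13 with edgeR, 22 with DESeq2, 14 without a filter (61 tested), 0 with at least 10 counts in every library (18 tested), 0 placed by title, 14 placed by file name and 0 to 10 with 1 library left out. Between cohorts 3 members passed, and 3 to 6 with 1 library left out, and of the 4 neutrophil lists 10 genes passed, 1 with at least 10 counts in every library (2 tested), 4 placed by title and 2 to 12 with 1 library left out. The log2 change between cohorts turned positive for Ngp with edgeR (0.39), DESeq2 (0.41), no filter (0.07) and without pilot striatum 1 (0.08), pilot striatum 2 (0.09), second midbrain 1 (0.59) or second striatum 1 (0.52), for Camp without second midbrain 1 (0.09) and for Ltf without second midbrain 1 (0.63) or second striatum 1 (0.23), and the cause was not tested. Without second midbrain 3 these values were -0.81, -1.52 and -1.24. Without a filter the median of all genes shifted to 0.31 between cohorts, and with library size scaling to -0.13. Over all genes, 149 passed in the joint fit, 237 with edgeR, 544 with DESeq2, 277 without a filter, 57 with at least 10 counts in every library, 0 placed by title, 440 placed by file name and 0 to 238 with 1 library left out. Replicate numbers were not taken as pairs, since the labels do not tie them to mice and the deviations of same-numbered libraries correlated at -0.03 in the pilot and 0.09 in the second cohort. With the replicate block, 9, 10 and 9 members passed in the pilot, second cohort and joint fits, 14 of the 44 list genes, and 308 genes in all. No paired analysis was possible between cohorts because the replicate numbers are nested in them. Spearman's correlation kept 3 of the 8 genes most alike to the members. The 2 libraries per group limit every comparison, and at 575709 counts second striatum 3 cannot show levels under about 5.14 CPM.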

Other observations

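Over the 8 libraries, the genes that are no members and whose log2 CPM was most like the mean pattern of the 10 members were Mpp1 (r = 0.975), Gm2000 (0.968), Clec7a (0.964), Gm5781 (0.964), Igf1 (0.963), Stk17b (0.957), Pla2g2d (0.954) and Msr1 (0.952). Clec7a and Msr1 encode a fungal glucan receptor and a scavenger receptor of macrophages. For S100a8 and S100a9 alone the list was led by Nif3l1 (0.993), Emb (0.987), Pfkfb3 (0.985) and the monocyte marker Plac8 (0.979), and for Ngp, Camp, Ltf and Lcn2 by Ube2c (0.945), a gene of dividing cells, Jund (0.94) and Myo5a (0.94). The latter list went on with 6330562C20Rik (0.939), Dab2 (0.936), the border macrophage markers Mrc1 (0.922) and Ms4a7 (0.921), and the dendritic cell marker Cd209a (0.921). These patterns were chosen after the levels had been seen, and the points share their libraries.

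Of the libraries in no group, the library titled Mdb 2 had 141 counts of S100a8, 697 of S100a9, 81 of Retnlg, 17 of Mmp9, 41 of Hdc, 5 of Fpr1, 50 of Ngp, 26 of Camp, 15 of Ltf and 38 of Lcn2. The library titled Str 2 had 1096 of S100a8, 7877 of S100a9, 1540 of Retnlg, 368 of Mmp9, 367 of Hdc, 78 of Fpr1, 1556 of Ngp, 883 of Camp, 358 of Ltf and 935 of Lcn2. Ly6g had 1 count in the former and 15 in the latter.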
